A study of Mus musculus with 7 samples.

Results

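The genes described here are 8 genes of fat cells, chosen by name: Adipoq, Fabp4, Plin1, Cfd, Lep, Retn, Lpl and Cidec. They were followed through the development of the mouse colon, whose outer wall and mesentery carry fat. The array annotation gave at least 1 probe set naming that gene alone for 6 of the 8 genes, out of 18195 genes measured, and between them they had 10 probe sets. Cfd, which codes for the complement protease adipsin, and Plin1, the coat protein of the adipocyte lipid droplet, had no such probe set in the annotation used here and were not analysed.

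The arrays came from inbred C57BL/6 mice, with no genetic change and no treatment. Colon was collected daily from E13.5 to E18.5 (E is embryonic day) and from adults 8 weeks after birth, and total RNA of each stage was hybridised to 1 Affymetrix Mouse Genome 430 2.0 array. The 7 arrays thus hold no replicates, and the number of animals behind each array was not given in the sources used here. The labels name colon and no fat, and no record of how far the adult colon was cleared of mesentery was used here.

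White adipocytes store triglyceride in a single large droplet and release hormones, the adipokines. Fat formation is driven by the transcription factors Pparg and Cebpa, and mature adipocytes take up fatty acids that lipoprotein lipase frees from circulating lipoproteins. Adiponectin (Adipoq) and leptin (Lep) are made almost entirely by adipocytes, whereas Fabp4 is also made by capillary endothelium and macrophages, and Lpl by muscle and macrophages.

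Adipoq and Retn were flat through the embryonic days and higher on the adult array, and Lpl was higher there as well. Fabp4 rose in the embryo up to E17.5 on its bright probe sets, and its adult difference from the fitted E18.5 level was not called. Cidec was slightly higher in the adult, though near dim signal there too, and Lep stayed at a dim level on every array. All values are log2 intensities after robust multi-array averaging (RMA), so that 1 unit is a 2-fold change in signal. Each gene was fitted in limma with a straight line over the 6 embryonic days and a separate term for the adult, giving a slope per day and an adult difference, which is the adult value minus the level fitted at E18.5. A slope was called at an adjusted p under 0.05, and an adult difference also had to reach 1 on the log2 scale. The scatter of the embryonic arrays about their line was the only error available, and the adult array was taken to scatter as they did, so the p-values cover no spread between adult animals.

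Adipoq codes for adiponectin, a hormone that sensitises tissues to insulin. Its probe set, 1422651_at, read, in order of stage, 4.41 (E13.5), 4.24, 4.49, 4.26, 4.40 and 4.41 (E18.5), and then 7.45 in the adult. The embryonic arrays lay between 4.24 and 4.49 and the adult array stood above all of them. The adult difference was 3.07 (SE 0.13, 95% interval 2.75 to 3.38, limma adjusted p = 3.69e-05), and the slope was 0.01 per day (SE 0.03, adjusted p = 0.885). In bulk tissue, fewer cells of a type and less RNA per cell cannot be told apart. As a guide to dim signal, 43 probe sets of olfactory receptors, genes of the nose, had medians between 4.53 and 4.71 and 95th percentiles between 5.42 and 5.72. Adipoq was below that 95th percentile on all 6 embryonic arrays and above it in the adult, so its embryonic level has only an upper limit and the 3.07 is no measured change between 2 expressed levels. With each embryonic array set to that percentile, the adult signal was at least 3.86-fold higher.

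Retn codes for resistin, an adipokine that in mice is secreted by white fat. Its probe set, 1449182_at, read 5.74, 5.87, 5.95, 6.11, 5.72 and 5.93 from E13.5 to E18.5 and 8.24 in the adult. The embryonic values had no trend, with a slope of 0.02 per day (SE 0.03, adjusted p = 0.787). The adult difference was 2.31 (SE 0.17, interval 1.90 to 2.71, adjusted p = 0.000272), a 4.94-fold higher signal. All 7 values exceeded the 95th percentile of the olfactory receptors. In the embryo, however, the brightest olfactory receptor probe set read 6.03 to 6.29, so the embryonic Retn level was still near dim signal.

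Cidec codes for a protein that fuses small lipid droplets into large ones. Its probe set, 1452260_at, read 5.33, 5.18, 5.22, 5.11, 5.45 and 5.33 from E13.5 to E18.5 and 5.98 in the adult. The adult value was above every embryonic value, and it alone passed the 95th percentile of the olfactory receptors. The adult difference was 0.66 (SE 0.15, interval 0.31 to 1.02, adjusted p = 0.0236), which passed the test but not the size limit. With each embryonic array set to that percentile, the adult signal was 1.39-fold higher, a limit that carries no error. On the adult array itself the percentile was 5.72 and the brightest olfactory receptor probe set read 6.24. The adult Cidec level was thus also near dim signal.

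Lep codes for leptin, the hormone that reports fat stores to the brain. Its probe set, 1422582_at, read 4.95, 4.81, 4.94, 4.92, 4.90 and 4.94 from E13.5 to E18.5 and 5.09 in the adult. The adult value was the highest, and all 7 values lay below the 95th percentile of the olfactory receptors. The adult difference of 0.17 was not called (SE 0.10, interval -0.07 to 0.41, adjusted p = 0.325), and in the fit over all probe sets the interval of its fold change ran from 0.945 to 1.34.

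**Figure D1:**
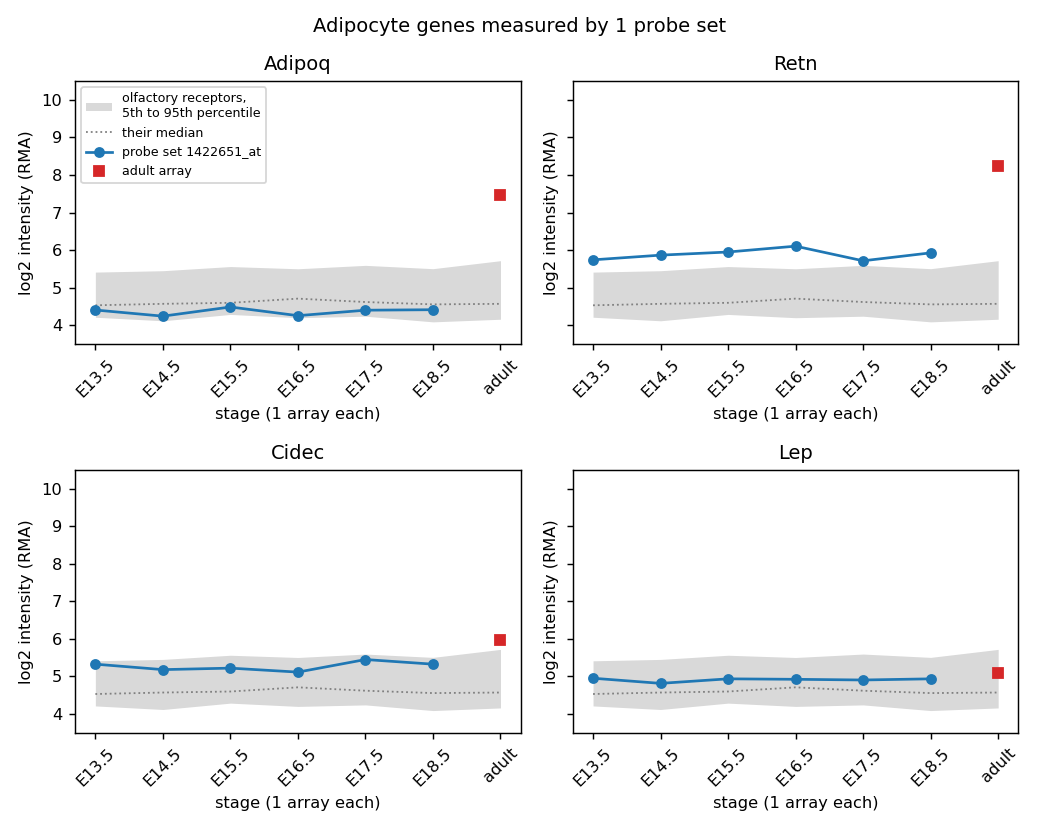
Log2 RMA intensity (vertical axis) at each stage (horizontal axis, 1 array each) for Adipoq, Retn, Cidec and Lep, with circles for embryonic arrays, a square for the adult array, and a grey band for the 5th to 95th percentile of 43 olfactory receptor probe sets. Adipoq went from 4.41 at E18.5 to 7.45 in the adult and Retn from 5.93 to 8.24, while Lep stayed within the band.

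The sequences just upstream of the start sites of the genes whose adult signal differed most, Adipoq and Retn, and of Lep, which stayed dim, are printed for comparison. They are the 250 bases before the start site in RefSeq on GRCm38.p6, all on the plus strand: chr16:23146286-23146535 for Adipoq, chr8:3655520-3655769 for Retn and chr6:29059971-29060220 for Lep. Capitals mark matches, on either strand, to the 4 motifs searched, TTGCNNAA (the core that C/EBP factors bind), AGGTCA (a nuclear receptor half-site), TATAA and CCAAT.
Adipoq: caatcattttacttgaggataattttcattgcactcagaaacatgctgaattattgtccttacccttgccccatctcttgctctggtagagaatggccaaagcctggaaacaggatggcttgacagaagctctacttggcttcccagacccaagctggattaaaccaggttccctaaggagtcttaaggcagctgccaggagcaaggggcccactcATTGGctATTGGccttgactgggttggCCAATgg
Retn: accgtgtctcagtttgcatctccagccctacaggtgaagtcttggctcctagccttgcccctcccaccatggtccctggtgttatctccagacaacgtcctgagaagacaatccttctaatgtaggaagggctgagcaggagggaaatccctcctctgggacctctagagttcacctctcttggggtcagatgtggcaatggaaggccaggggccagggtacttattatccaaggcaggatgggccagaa
Lep: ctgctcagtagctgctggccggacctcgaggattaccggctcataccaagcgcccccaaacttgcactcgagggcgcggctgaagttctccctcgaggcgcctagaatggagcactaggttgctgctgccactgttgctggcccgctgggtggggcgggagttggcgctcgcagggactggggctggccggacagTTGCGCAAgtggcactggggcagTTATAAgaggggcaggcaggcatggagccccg
The Adipoq window held CCAAT 3 times, at 34 to 30 and 27 to 23 bases before the start on the minus strand and at 7 to 3 bases before it on the plus strand. The Lep window held TTGCNNAA once, as TTGCGCAA at 55 to 48 bases before the start, a match that reads the same on both strands. It also held TATAA on each strand, in overlapping matches from 32 to 27 bases before the start. The Retn window held none of the 4 motifs. Among 32851 such windows, CCAAT occurred in 33.8%, TATAA in 22.8%, AGGTCA in 14.0% and TTGCNNAA in 9.56%, so these matches describe the letters only. Of the 8 genes, 6 had an entry in the promoter table, and Fabp4 and Lpl had none.

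Lpl codes for lipoprotein lipase, the enzyme on capillary walls that frees fatty acids from circulating triglyceride. Its probe set 1415904_at read 8.27, 8.19, 7.93, 7.89, 8.53 and 8.66 from E13.5 to E18.5 and 10.39 in the adult. The embryonic values dipped at E15.5 and E16.5 and the adult value lay above all of them. The adult difference of this probe set was 1.94 (SE 0.30, adjusted p = 0.00647), a 3.83-fold higher signal with an interval of 2.33 to 6.30, and its slope of 0.08 per day was not called (adjusted p = 0.424). The other Lpl probe set, 1431056_a_at, read at most 5.30 in the embryo and 5.56 in the adult, below the 95th percentile of the olfactory receptors on all 7 arrays. Its adult difference of 0.43 was not called (SE 0.15, adjusted p = 0.0961). The median of both gave an adult difference of 1.18 for the gene (SE 0.14, interval 0.84 to 1.52, adjusted p = 0.00204), called higher but smaller than on the bright probe set.

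Fabp4 codes for the adipocyte fatty acid binding protein, which carries fatty acids inside the cell. Its probe set 1417023_a_at read 7.34, 8.46, 9.10, 9.87, 10.25 and 10.21 from E13.5 to E18.5 and 10.56 in the adult. Its probe set 1451263_a_at read 7.56, 8.90, 9.45, 10.19, 10.57 and 10.64 from E13.5 to E18.5 and 11.09 in the adult. Both were lowest at E13.5 and climbed up to E17.5, and the E17.5 and E18.5 values differed by 0.04 and 0.07. Limma's SD about the line, moderated over all probe sets, was 0.31 and 0.32. It also holds the misfit of a straight line.

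The slopes were 0.58 (SE 0.07, adjusted p = 0.00429) and 0.60 per day (SE 0.08, adjusted p = 0.00434), and the signal at E18.5 was 7.30 and 8.42 times that at E13.5. The first daily step, to E14.5, was 1.12 and 1.33, and the last, to E18.5, was -0.04 and 0.07, so a straight line describes the rise only roughly. The adult differences of -0.11 (interval -1.01 to 0.78) and 0.03 (interval -0.90 to 0.96) were not called. These intervals are wide and hold changes in both directions. The measured adult values were above the measured E18.5 values by 0.35 and 0.45.

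The other Fabp4 probe sets stayed at a dim level, 1424155_at between 4.72 and 4.98 and 1425809_at between 4.50 and 4.73 over the 7 arrays. Neither had a called slope (adjusted p = 0.916 and 0.813). The gene's value, the median of the 4 probe sets, therefore mixed a rising pair with a flat pair. It rose from 6.13 (E13.5) to 7.52 (E18.5), with 7.77 in the adult, with a slope of 0.30 per day (SE 0.04, interval 0.20 to 0.39, adjusted p = 0.00441), smaller than on either bright probe set. Its adult difference was -0.0036 (SE 0.21, interval -0.49 to 0.49, adjusted p = 0.995).

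**Figure D2:**
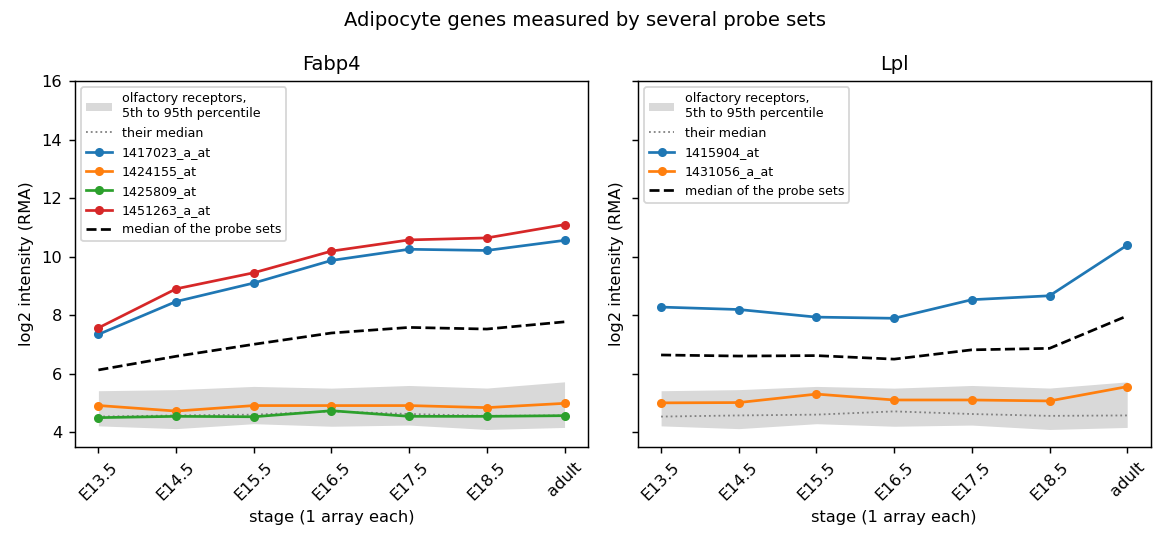
Log2 RMA intensity (vertical axis) at each stage (horizontal axis, 1 array each) for every probe set of Fabp4 and Lpl, with the median of the gene's probe sets dashed and the olfactory receptor band in grey. Both bright Fabp4 probe sets climbed from E13.5 to E17.5 while the other pair stayed below 5, and the bright Lpl probe set stepped from 8.66 at E18.5 to 10.39 in the adult.

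Over the 6 measured genes, 1 rose across the embryonic days (Fabp4) and none fell, beside 9.12% of all genes rising and 10.4% falling. On the adult array 3 were higher (Adipoq, Retn and Lpl) and none lower, beside 4.23% of all genes higher and 3.26% lower. Taken by probe set, 2 of 10 rose and none fell, beside 7.24% and 9.55% of all probe sets, while on the adult array 3 were higher and 0 lower, beside 3.94% and 4.21%. The median adult difference was 0.92, against 0.03 over all genes, and the median slope was 0.02 per day, against 0.00087. Some other lists counted below had adult medians near or above 0.92. These were the 2 resistin-like genes (4.07) and markers of pancreatic acinar cells (1.11), colon epithelium (0.86) and macrophages (0.83). Others were low, such as skeletal muscle markers (0.03) and endothelial markers (-0.23). With each gene centred on its own mean, the median of the 6 genes was -0.31, -0.30, -0.20, -0.19, -0.04 and -0.02 from E13.5 to E18.5 and 0.87 in the adult. The study called development-related those genes whose rank correlation with stage was strongest, keeping the most variable of them. Computed that way (absolute rank correlation above 0.9, then the 1000 of those genes with the largest median absolute deviation), Fabp4 alone of the 6 qualified (rank correlation 0.96). The 1000 genes are 5.50% of all genes, a share that the definition fixes.

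**Figure D3:**
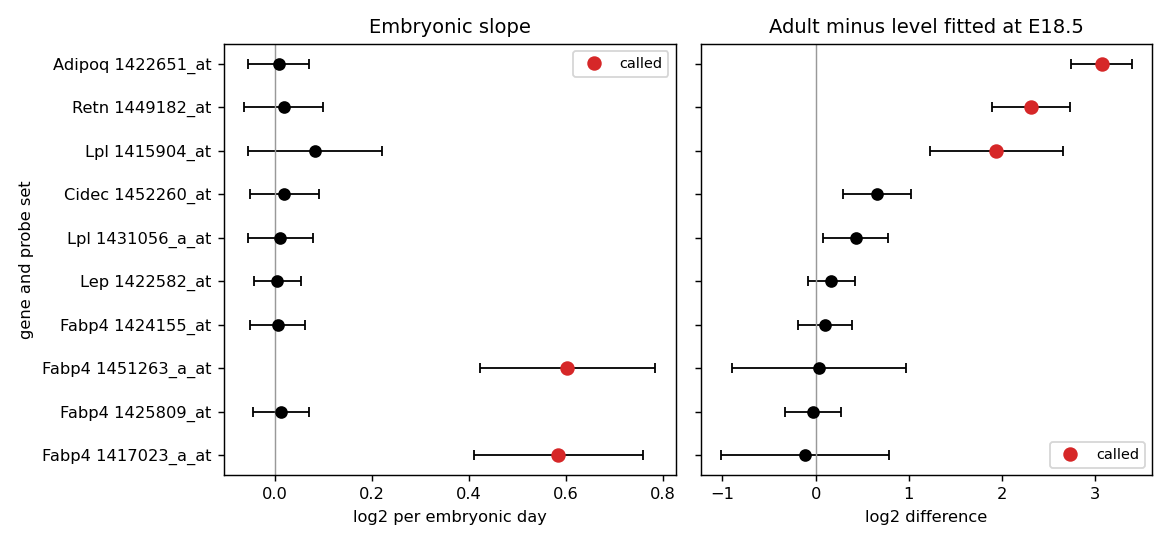
Embryonic slope in log2 per day (left) and adult value minus the level fitted at E18.5 in log2 (right) for the 10 probe sets of the 6 measured genes, each with its 95% interval, from the fit over all probe sets. Called probe sets are red: both bright Fabp4 probe sets for the slope, and Adipoq, Retn and the bright Lpl probe set for the adult difference. Adipoq and Cidec were below the dim-signal percentile on every embryonic array.

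Several correlations between these genes changed once the adult array was left out, some of them in sign. Adipoq and Retn had a correlation of 0.98 over the 7 arrays and -0.34 over the 6 embryonic arrays. Adipoq and the bright Lpl probe set had 0.95 and 0.26, Cidec and the bright Lpl probe set 0.97 and 0.81, and Cidec and Retn 0.87 and -0.82. Adipoq and Cidec were below the 95th percentile of the olfactory receptors on all 6 embryonic arrays, so their embryonic correlations say little. The bright Fabp4 probe sets correlated at 0.998 with each other over all arrays, and at 0.44 and 0.47 with Adipoq. These are descriptions over 7 points that share a single adult array.

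Other genes of these families and pathways were counted over lists. Together the lists held 216 measured genes, of which 23.1% rose and 4.17% fell in the embryo and 16.2% were higher and 4.63% lower in the adult, beside the 9.12%, 10.4%, 4.23% and 3.26% of all genes given above. No list was tested as a set, and single lists are small, so that 1 gene is a share of 5% or more. Of 35 list genes called higher in the adult, 13 had a gene value below the 95th percentile of the olfactory receptors on every embryonic array. On that value their differences have no measured embryonic level. The 13 include Retnla, Mlxipl, Plin4, Abhd5, Pnpla2, Lcn2, C1qa, Cd163, Prss2, Ctrb1 and Hspa1a. For genes with several probe sets, such as Abhd5 (3), Pnpla2 (2) and Prss2 (4), the single probe sets were not checked for dim signal. Among 7 other fatty acid binding proteins, 3 rose (42.9%) and 1 fell in the embryo, and 2 were lower in the adult (28.6%). Fabp5, which adipocytes and epithelia make, started at 10.69 on E13.5, reached 10.32 on E18.5 and read 8.84 in the adult. Its slope was -0.09 per day (adjusted p = 0.0258) and its adult difference -1.43 (SE 0.11, adjusted p = 0.00031). Fabp7, the brain form found in glia, rose by 0.41 per day and then was lower in the adult, with a difference of -4.65 (adjusted p = 0.000442). The intestinal forms rose most, Fabp2 by 1.14 (adjusted p = 0.00922) and Fabp6 by 1.01 per day (adjusted p = 0.0105), with no called adult difference. Both measured resistin-like genes were higher in the adult. Retnla, made by macrophages and fat, went from 5.20 at E18.5 to 7.78 in the adult, and its adult difference from the fitted level was 2.53 (adjusted p = 8.96e-05). Retnlb, the goblet cell protein of the colon, went from 5.95 to 11.14, and its adult difference from the fitted level was 5.60 (adjusted p = 8.04e-05).

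Of 17 transcription factors of fat formation, 5 rose in the embryo (29.4%) and none fell, and 2 were higher in the adult (11.8%). Pparg, the master regulator of adipocytes and also a gene of colon epithelium, started at 6.15 on E13.5, reached 8.33 on E18.5 and read 10.04 in the adult. Its slope was 0.43 per day (SE 0.03, adjusted p = 0.000806) and its adult difference 1.76 (SE 0.16, adjusted p = 0.000641). Cebpa rose by 0.48 per day (adjusted p = 0.00971) with no called adult difference, and Klf4, a factor of differentiated epithelium too, rose by 0.68 (adjusted p = 0.00122). Mlxipl, the carbohydrate response factor ChREBP, was flat in the embryo and higher in the adult by 1.57 (adjusted p = 0.00014). Of 19 lipid droplet and lipolysis genes, 4 rose in the embryo and 4 were higher in the adult (21.1% each), with none falling or lower. The latter were Cideb by 2.31 (adjusted p = 0.015), Abhd5, the activator of adipose triglyceride lipase, by 1.99 (adjusted p = 0.000255), Plin4 by 1.10 (adjusted p = 0.000389) and the lipase Pnpla2 by 1.06 (adjusted p = 0.000536). Hormone-sensitive lipase Lipe (0.49, adjusted p = 0.0626) and the glycerol channel Aqp7 (0.07, adjusted p = 0.742) were not called.

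Of 18 measured genes of fatty acid and triglyceride synthesis, 4 rose (22.2%) and 1 fell in the embryo, and 3 were higher (16.7%) and 1 lower in the adult. The acyltransferase Agpat2 was higher by 1.32 (adjusted p = 0.0148), Thrsp by 1.25 (adjusted p = 0.0165) and the desaturase Scd1 by 1.03 (adjusted p = 0.02), while Scd2 was lower, with a difference of -2.03 (adjusted p = 0.00235). Of 13 genes of fatty acid uptake and the lipoprotein lipase system, 4 rose (30.8%) and 1 was higher in the adult (7.69%), the transporter Slc27a4 by 1.29 (adjusted p = 0.000338). Among the partners of lipoprotein lipase, the adult differences were -0.20 for its capillary anchor Gpihbp1 (adjusted p = 0.663) and 0.10 for its folding factor Lmf1 (adjusted p = 0.733). Its activator Apoc2 had an adult difference of 0.87 (adjusted p = 0.00283), past the test and short of the size limit. Its inhibitor Apoc3 rose by 0.82 per day (adjusted p = 0.0179), and its adult difference of -2.93 was not called (adjusted p = 0.0634). Of 11 insulin and adrenergic response genes, 3 rose (27.3%) and 1 fell, and 1 was higher (9.09%) and 2 lower (18.2%) in the adult. The fatty acid receptor Ffar4 was higher by 2.43 (adjusted p = 4.27e-05), Irs1 had a difference of -1.73 (adjusted p = 0.000111), and the insulin-responsive glucose carrier Slc2a4 was not called (0.02, adjusted p = 0.955).

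Of 17 other adipokines, 2 rose in the embryo, a share of 11.8% near the 9.12% of all genes, Rarres2 (chemerin) by 0.59 per day (adjusted p = 0.00493) and C1qtnf2 by 0.17 (adjusted p = 0.0201). A further 2 were higher in the adult, the retinol carrier Rbp4 by 2.19 (adjusted p = 0.00408) and Lcn2 by 1.68 (adjusted p = 0.000959). Of 10 adipokine receptors none had a called slope and only the apelin receptor Aplnr had a called adult difference, of -1.83 (adjusted p = 9.68e-05). The adult difference of the adiponectin receptor Adipor1 was 0.70 (adjusted p = 0.0146), short of the size limit. That of the leptin receptor Lepr was 0.41 and did not pass the test (adjusted p = 0.0712). Of 7 measured genes of complement, the wider system that Cfd belongs to, 2 rose in the embryo (28.6%). These were Cfb by 0.44 per day (adjusted p = 0.00409) and C2 by 0.62 (adjusted p = 0.00273). In the adult C1qa was higher (adjusted p = 0.000604), just at the size limit, and C2 had a difference of -1.67 (adjusted p = 0.0227).

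Of 13 brown and beige adipocyte genes, 1 rose in the embryo, a share of 7.69%, and 2 were higher in the adult, Ppargc1a by 1.20 (adjusted p = 0.0127) and Cox7a1 by 1.65 (adjusted p = 0.0144), both also genes of other oxidative tissues. Ucp1, the uncoupling protein that defines brown fat, read 5.58 to 6.09 in the embryo and 5.78 in the adult and was not called. Of 13 progenitor genes, 4 rose (30.8%) and 2 fell (15.4%) in the embryo. In the adult Pparg alone of these was higher and 3 were lower, with differences of -2.35 for Dlk1, an inhibitor of fat formation (adjusted p = 0.00639), -1.05 for Dpp4 (adjusted p = 0.00535) and -1.05 for Pdgfrb (adjusted p = 0.0113).

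**Figure D4:**
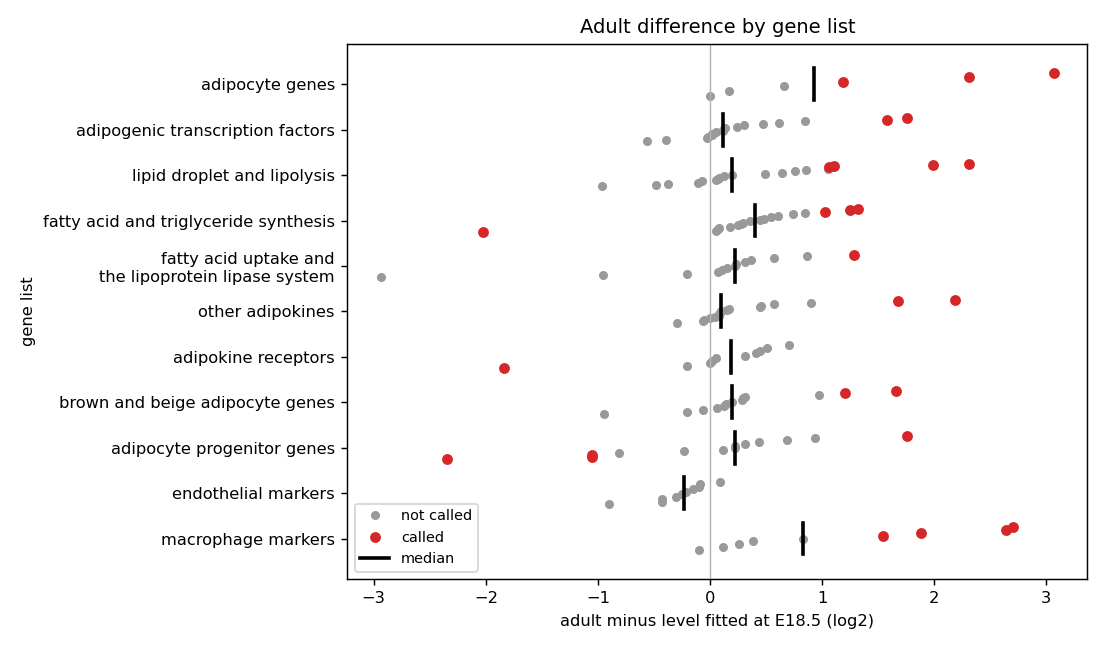
Adult value minus the level fitted at E18.5 (horizontal axis, log2), 1 point a gene, for the adipocyte genes and 10 other gene lists (vertical axis); red points were called and black bars are list medians. The adipocyte genes had a median of 0.92, endothelial markers -0.23 and macrophage markers 0.83. Lists not drawn include resistin-like genes (4.07), pancreatic acinar markers (1.11), colon epithelial markers (0.86) and, lower, skeletal muscle markers (0.03).

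Some markers of other cells that make some of these genes, or could lie beside the colon, also differed on the adult array. Of those called higher, the macrophage marker Cd163 and the acinar markers Prss2 and Ctrb1 had dim gene values on every embryonic array. Of 9 macrophage markers 4 were higher (44.4%, beside 4.23% of all genes). Their summed level (log2 of summed intensities) was 9.19 to 9.92 in the embryo and 11.01 in the adult. Lyz2 differed by 2.70 (adjusted p = 0.0056) and Cd163 by 2.64 (adjusted p = 1.53e-05). Of 8 pancreatic acinar markers 4 were higher, with a summed level of 8.41 to 8.72 in the embryo and 10.68 in the adult, led by the elastase Cela1 with 3.97 (adjusted p = 8.45e-05).

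Of 10 endothelial markers none was called in either contrast, with a summed level of 9.96 to 10.23 in the embryo and 9.81 in the adult. Their median adult difference was -0.23. Over all genes 9.12% rose, 10.4% fell, 4.23% were higher and 3.26% lower, so no call among 10 genes says little. Over the days on which Fabp4 rose, no endothelial marker had a called slope, and of the macrophage markers only Mpeg1 rose (0.18 per day, adjusted p = 0.00657). Pecam1, Cdh5, Tie1 and Flt1 were near dim signal in the embryo (at most 5.67, 5.57, 5.78 and 5.71), while others, such as Egfl7 (8.13), were brighter. Cav1 and Cd34, counted in other lists and not as endothelial markers, rose by 0.26 and 0.11 per day (adjusted p = 0.00496 and 0.0157). Which cells carried the Fabp4 rise was not tested. Of 7 mesothelial markers 2 rose (28.6%), 4 fell (57.1%) and none was called in the adult. Of 10 skeletal muscle markers none was called, which again says little beside those shares. Of 7 lymph node and B cell markers 1 rose and 1 was higher in the adult (14.3% each). All 9 colon epithelial markers rose in the embryo and 3 were higher in the adult (33.3%).

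Some genes chosen as responsive to tissue handling, and control probe sets for RNA quality, also differed on the adult array. Of 12 such genes, 5 were higher in the adult, among them Fos by 3.19 (adjusted p = 2.43e-05) and Hspa1a by 2.49 (adjusted p = 5.82e-05). The other 7, among them Jun, Junb and Egr1, were not called. The share called higher was 41.7%, beside 4.23% of all genes. In the embryo 3 of the 12 already rose, Fos by 0.30 per day (adjusted p = 0.000984), Hspa1b by 0.18 (adjusted p = 0.0068) and Zfp36 by 0.16 (adjusted p = 0.0156). Whether handling differed between the arrays was not tested. The control probe sets for the 5′ end of Gapdh read below those for its 3′ end, with differences of -1.59 to -1.29 in the embryo and -2.41 in the adult. For Actb these differences were -2.14 to -1.96 and -2.66. The part of these differences, and of fat attached to the adult colon, in the higher Adipoq, Retn and Lpl signals was not tested. The median of all probe sets lay between 5.81 and 5.86 on every array.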

How the data were processed

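Total RNA of 7 C57BL/6 mouse colon samples, 1 per stage, was measured on Affymetrix Mouse Genome 430 2.0 arrays. The authors deposited log2 intensities normalised by RMA, and their processing notes name the R package affy (1.22.1) in R 2.9.2. Probe sets were named from the platform annotation: of 45101, 34958 named 1 gene, 932 named several and 9211 none, and those with several or none were left out. A gene's value was the median over its probe sets (18195 genes, of which 18033 identifiers matched RefSeq on GRCm38.p6).

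All genes were fitted in limma 3.58.1 (R 4.3.3) with an intercept, a slope per embryonic day and an adult term, which left 4 residual degrees of freedom, and p-values were Benjamini-Hochberg adjusted over all genes or, where said, all probe sets. The number of arrays limits the precision. A probe set below the olfactory receptors' 95th percentile on every embryonic array was given a lower limit of its fold, with each such array set to that percentile, a step chosen after seeing the data. Alternatives were the brightest probe set, arrays centred on their medians, dropping the dimmest 25% of genes, robust trended variances, single probe sets, other references, and leaving out each embryonic array.

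The 8 genes and all gene lists were chosen with earlier results of these data known. Genes named from a list were called ones, up to 4 by absolute slope and up to 4 by absolute adult difference, with other members added for their role after their values were seen. Genes with the most similar pattern were taken by Pearson correlation over the 7 arrays among genes whose range was at least 2. Summaries used Python 3.11.15 with pandas 2.3.3.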

Additional observations from a re-analysis of the deposited data

How the results depend on the processing

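The count of called genes among the 8 stayed at 1 rising and 0 falling in every alternative run, and 3 were higher in the adult in every alternative except when the dimmest 25% of genes were dropped, which took out Adipoq and Lep and left 2. The Fabp4 slope ranged from 0.24 to 0.60, and was 0.60 on the brightest probe set, since the dim pair then left its value. Its adult difference ranged from -0.28 to 0.73 and was never called. The adult differences ranged from 2.20 to 2.41 for Retn, from 1.13 to 1.94 for Lpl and from 0.59 to 0.74 for Cidec. For Adipoq they ranged from 3.03 to 3.09, which says nothing of stability, since its embryonic level was dim on all 6 arrays. The median level of the 6 measured genes, adult minus E18.5, was 0.88 and became 1.19 with the brightest probe set. Among the 216 genes of the other lists, 59 had a called slope, and leaving out 1 embryonic array gave 28 to 71, namely 28 when E18.5 was left out, 31 for E17.5, 35 for E14.5, 36 for E13.5, 44 for E16.5 and 71 for E15.5, and the cause was not tested. No paired analysis was possible because each stage has 1 array and the labels give no replicate numbers. The adult array could not be left out in turn, since it is the only one of its stage.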

Other observations

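Among 1218 genes whose values spanned at least 2 on the log2 scale, the 10 whose course over the 7 arrays was most like the mean of the 6 measured adipocyte genes had Pearson correlations between 0.995 and 0.999: Hsd3b2, Dio1, C1s1, Slc37a1, Sult1a1, Slc13a1, H2-Eb1, Cd74, Acer1 and Glod5. For single genes, the course most like that of Adipoq was found for Ces1d (0.999), Igkv8-30 (0.998) and Cd163 (0.998). For Retn it was found for Plet1 (0.997), B3gnt6 (0.995) and Sectm1b (0.995). For Lpl the genes were Fam102a (0.996), Adck5 (0.994) and Hsbp1l1 (0.993), and for Fabp4 Coro2a (0.995), Tmem236 (0.988) and Dsc2 (0.988). Cidec was most like Muc4 (0.975), Gstt1 (0.967) and Kcnq1 (0.966), and Lep most like Mall (0.919), Saa2 (0.899) and Tph1 (0.897). All these correlations share the same 7 arrays, of which 1 is adult, and are descriptions only.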
